A study of Rattus norvegicus with 5 samples.

Results

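The genes described here build the microtubules and neurofilaments of the axon and drive transport along them. They were taken by symbol from the gene names of the authors' deposited comparison. The rule kept names that begin with Kif, Klc, Dync, Dctn, Tuba, Tubb, Stmn or Map1, together with Nefl, Nefm, Nefh, Ina, Map2, Mapt and Gap43. It found 68 of the 12054 genes in that comparison. They were 29 kinesin genes (light chains and the kinesin-2 accessory subunit included), 13 dynein and dynactin genes, 10 tubulins, 4 neurofilament subunits, 4 stathmins, and 8 genes of microtubule-associated proteins, LC3 and GAP-43.

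The study sequenced polyadenylated RNA of rat striatal neurons cut out one by one under the laser, after a fluorescent tracer put into the target of their axons had been carried back to the cell body. Striatomesencephalic neurons, whose axons run to the midbrain, gave 2 libraries, and striatopallidal neurons, whose axons end in the pallidum, gave 3 libraries. The RNA of both groups was copied and amplified with a kit made for single cells. The sources used here do not give strain, age, sex, the number of cells per library or whether libraries came from separate animals, so p-values measure only the spread between these libraries.

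Kinesins are motors that mostly walk outward along microtubules and carry vesicles, mitochondria and building blocks toward the axon terminal. Cytoplasmic dynein, with its partner complex dynactin, carries cargo back to the cell body, and it is also the motor on which retrograde tracers depend. Microtubules are polymers of alpha- and beta-tubulin, which stathmins keep apart and proteins such as tau and MAP2 hold together, while neurofilaments fill the axon and set its calibre. Spiny projection neurons of the striatum send long axons out of the region and therefore rely on all of these.

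Library totals ran from 20845178 to 24805062 counts, and the detection floor of 3 counts was 0.121 to 0.144 CPM (each count divided by its library total, scaled to 1000000 counts). It covers counting error only. All 68 genes passed the filter on low counts. This was close to given, because the lowest summed count of any gene in the authors' comparison was 101. Of the 68, 2 genes, Kif15 and Tubb6, had no count in striatopallidal replicate 2. The direct pathway receptor gene Drd1 was higher in both striatomesencephalic libraries (861 and 1084 CPM) than in the striatopallidal libraries (582, 311 and 415 CPM), and Drd2 was lower (144 and 110 CPM against 606, 391 and 524 CPM). Summed over 7 direct pathway markers the libraries held 4672 and 5091 CPM against 2498, 1732 and 1668 CPM, and over 5 indirect pathway markers 1421 and 1716 CPM against 5692, 5556 and 6073 CPM. The 8 markers of spiny projection neurons of either kind summed to 10738 and 15341 CPM against 18213, 14492 and 18171 CPM, a log2 ratio of group means of -0.38. Markers were matched by symbol to the authors' comparison, and those called measured are the matched ones. The others may still have counts. Oligodendrocyte RNA was present throughout, with 12 of 12 markers measured. Their summed level was 6023 and 7558 CPM against 7320, 7092 and 5397 CPM. Astrocyte markers (9 of 9 measured) summed to 1384 and 1172 CPM against 1550, 1046 and 1298 CPM, although Gfap, the astrocyte filament protein, was at 11.5 and 3.85 CPM against 243, 175 and 87.7 CPM. Microglia (5 of 9 markers measured), vascular cells (5 of 7), ependymal cells (2 of 6) and interneurons (5 of 9) each summed to between 6.65 and 128 CPM in every library. Vtn, a vascular marker, was at 0 in striatomesencephalic replicate 1. Of 7 glutamatergic markers 2 were measured, Rorb and Nrgn, and they lay in opposite directions. Rorb was at 129 and 55.4 CPM against 22.4, 13.7 and 20.3 CPM, and Nrgn at 77.8 and 129 CPM against 453, 152 and 349 CPM. Tubulins, MAPs and many motors are made by these cells as well, and the part of such RNA in the results below was not tested. Striatopallidal replicate 2 stood apart: it was the lowest library for 37 of the 68 genes (54.4%) and for 41.9% of all genes tested.

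No member differed between the neuron types past the threshold. Of the 68 genes 0 had an adjusted p below 0.05 in edgeR's quasi-likelihood test, and the share over all 13811 genes tested was 0% as well. Drd1 and Drd2, which mark the neuron types, did not pass in that test either, each with an adjusted p of 0.779. A gene that did not pass can therefore still differ between the neuron types. An unadjusted p below 0.05 was found for 5 of 68 genes (7.35%), against 6.07% of all genes. These 5 were the kinesin genes Kif21a, Kif17 and Kif27, higher in striatomesencephalic libraries, and the kinesin Kif5c and the neurofilament subunit Ina, higher in striatopallidal libraries. Background shares for the same threshold were 2.93% of genes higher in striatomesencephalic and 3.14% higher in striatopallidal libraries. DESeq2 called 1 member, Kif27, and 1.59% of all genes, while the exact test of edgeR and limma voom called 0 members (backgrounds 0.326% and 0%). At an unadjusted p below 0.05, DESeq2 had 6 members (10.8% of all genes), the exact test 5 (7.64%) and limma voom 7 (4.66%). Without striatopallidal replicate 2, 9 of 68 genes had an unadjusted p below 0.05 (13.2%, against 8.26% of all genes), and without striatomesencephalic replicate 1 none had (against 4.03%).

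Log2 fold changes come from that edgeR fit after TMM scaling and are positive where striatomesencephalic libraries are higher, while levels are plain CPM. Since CPM is not divided by transcript length, levels are compared between libraries and not between genes. In bulk samples, fewer cells of a type and less RNA per cell cannot be told apart. The median log2 fold change of the 68 genes was -0.045, with 29 values above and 39 below 0, beside a median of -0.059 over all genes, of which 47.4% were above 0. By class the medians were 0.084 for kinesins (16 positive, 13 negative), -0.31 for dynein and dynactin (2 positive, 11 negative) and 0.080 for tubulins (6 positive, 4 negative). They were -1.32 for neurofilaments (0 positive, 4 negative), 0.19 for stathmins (3 positive, 1 negative) and -0.13 for the microtubule-associated group (2 positive, 6 negative).

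**Figure D1:**
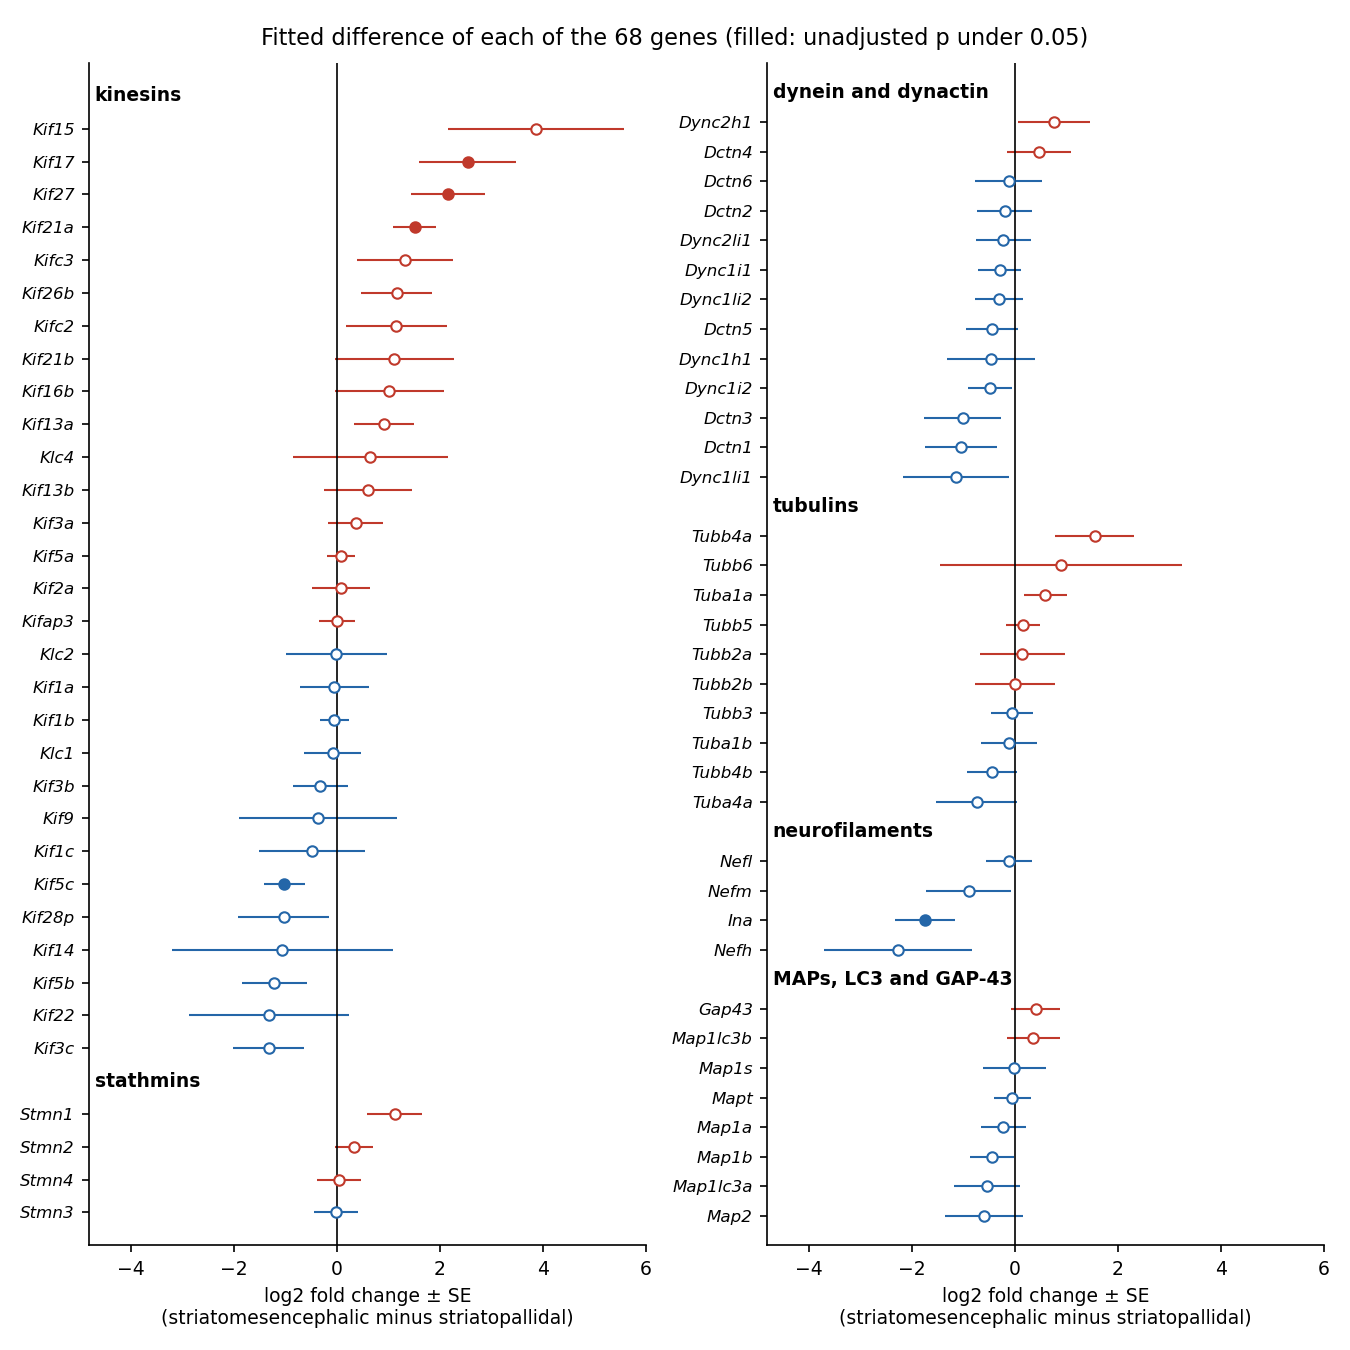
Log2 fold change (striatomesencephalic minus striatopallidal, edgeR) of each of the 68 genes by class, with 1 point per gene, bars of 1 SE and filled points where the unadjusted p was below 0.05. Kinesins, tubulins and stathmins straddle 0, while all 4 neurofilament subunits and 11 of 13 dynein and dynactin genes lie below it.

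In CPM, 13 of the 68 genes (19.1%) had groups that did not overlap, close to the 21.1% of all genes tested. Higher in both striatomesencephalic libraries than in any striatopallidal one were 9 genes (11.2% of all genes behaved so): Kif15, Kif17, Kif27, Kif21a, Kif26b, Kif13a, Stmn1, Tuba1a and Tubb5. Lower were 4 genes (9.91% of all genes): Kif5c, Kif5b, Kif3c and Ina. With TMM-scaled CPM the total was 11 (background 21.6%), 6 higher (background 10.4%) and 5 lower (background 11.2%), with Kif13a, Kif26b and Tubb5 overlapping and Map1lc3a apart. Kinesins made up 9 of the 13, which is 31.0% of the 29 kinesins, against 21.1% of all genes. In TMM-scaled CPM 4 of the 29 kinesins were higher and 3 lower (backgrounds 10.4% and 11.2%), where plain CPM had 6 and 3. The kinesin share was thus nearer to the background, 21.6% of all genes, than in plain CPM.

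**Figure D2:**
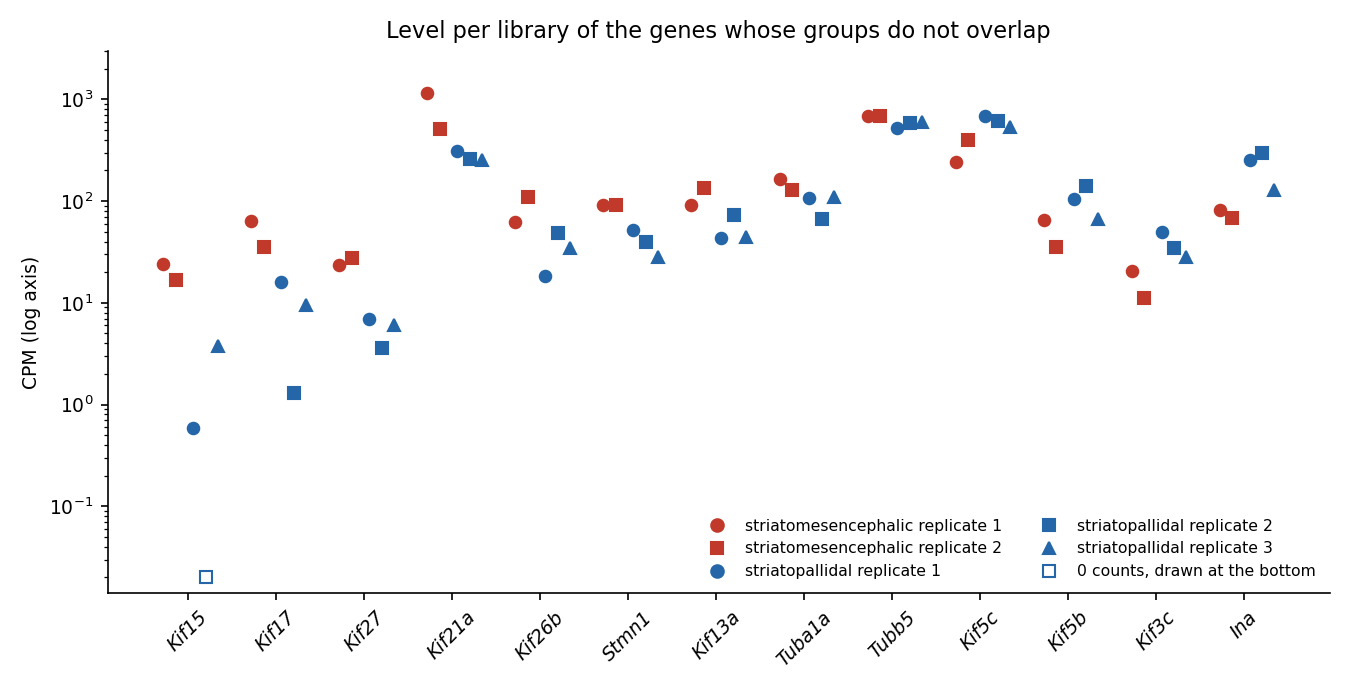
CPM on a log axis of the 13 genes whose groups did not overlap, with 1 point per library coloured by neuron type and open where a library was at 0. Striatomesencephalic points lie above all striatopallidal points for the first 9 genes and below them for Kif5c, Kif5b, Kif3c and Ina.

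The promoter windows of the 5 genes with an unadjusted p below 0.05 are shown because these carry the largest contrasts relative to their spread. Each is the RefSeq window of 300 bases around the gene's start, read 5′ to 3′ on the gene's strand, in build GRCr8. Positions are chr7:124058491-124058790 (minus strand) for Kif21a, chr1:255837879-255838178 (plus strand) for Ina and chr17:6304739-6305038 (plus strand) for Kif27. They are chr5:155765342-155765641 (plus strand) for Kif17 and chr3:54441057-54441356 (plus strand) for Kif5c. Capitals mark the letters of 6 motifs on either strand. They are the TATA box (TATAAA), the CAAT box (CCAAT), the Sp1 motif (GGGCGG), the short (TGACG) and full (TGACGTCA) cAMP response element, and the E-box (CACGTG).
Kif21a: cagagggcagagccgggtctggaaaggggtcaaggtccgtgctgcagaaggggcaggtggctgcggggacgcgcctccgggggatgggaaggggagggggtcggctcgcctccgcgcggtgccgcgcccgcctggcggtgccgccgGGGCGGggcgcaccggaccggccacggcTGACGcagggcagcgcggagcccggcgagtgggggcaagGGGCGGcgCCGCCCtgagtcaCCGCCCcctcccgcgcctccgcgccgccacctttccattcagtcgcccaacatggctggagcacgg
Ina: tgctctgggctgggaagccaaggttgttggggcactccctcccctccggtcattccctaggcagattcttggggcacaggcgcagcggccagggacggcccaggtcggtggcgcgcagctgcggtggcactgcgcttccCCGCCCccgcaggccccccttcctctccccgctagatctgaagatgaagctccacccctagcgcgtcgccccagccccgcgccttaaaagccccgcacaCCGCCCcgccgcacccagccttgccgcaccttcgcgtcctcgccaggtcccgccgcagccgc
Kif27: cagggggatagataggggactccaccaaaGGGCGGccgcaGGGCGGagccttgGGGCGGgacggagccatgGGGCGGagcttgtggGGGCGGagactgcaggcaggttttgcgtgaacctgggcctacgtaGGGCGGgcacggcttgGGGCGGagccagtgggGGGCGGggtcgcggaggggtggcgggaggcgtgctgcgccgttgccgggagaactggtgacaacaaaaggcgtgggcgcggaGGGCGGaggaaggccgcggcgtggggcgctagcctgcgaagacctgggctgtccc
Kif17: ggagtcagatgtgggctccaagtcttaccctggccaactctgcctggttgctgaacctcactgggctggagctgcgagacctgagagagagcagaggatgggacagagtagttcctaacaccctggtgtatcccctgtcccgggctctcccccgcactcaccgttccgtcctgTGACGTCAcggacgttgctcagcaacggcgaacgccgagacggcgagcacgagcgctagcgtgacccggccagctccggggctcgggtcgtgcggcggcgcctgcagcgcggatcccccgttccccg
Kif5c: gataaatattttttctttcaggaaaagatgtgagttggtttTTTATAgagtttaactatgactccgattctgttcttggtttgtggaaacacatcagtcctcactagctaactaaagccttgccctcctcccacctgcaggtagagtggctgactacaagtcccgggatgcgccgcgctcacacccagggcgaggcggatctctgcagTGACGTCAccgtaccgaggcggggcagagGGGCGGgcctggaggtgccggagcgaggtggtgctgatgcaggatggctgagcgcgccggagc
TGACGTCA occurs once in Kif17 and once in Kif5c, genes that lay on opposite sides of the comparison. GGGCGG occurs 9 times in Kif27, 4 times in Kif21a, 2 times in Ina and 1 time in Kif5c. A window was found for 52 of the 68 genes. TGACGTCA stood in 6 of these 52 (11.5%: Dctn3, Kif15, Kif17, Kif5c, Klc1 and Tubb2a), against 3.18% of 8496 windows of tested genes and 1.91% of all 27457 windows. TGACG lies within TGACGTCA and so includes it, and stood in 34.6% of member windows against 32.6% of those of tested genes. GGGCGG stood in 71.2% against 62.8%, CCAAT in 38.5% against 37.3%, TATAAA in 13.5% against 6.43% and CACGTG in 5.77% against 9.29%. The median number of CG dinucleotides was 24 in member windows, 21 in those of tested genes and 7 in all windows. These letters are a description of the windows and not a measurement of binding.

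Among kinesin-1 heavy chains, the motors of mitochondria and of many vesicles, 2 of 3 genes were lower in both striatomesencephalic libraries than in any striatopallidal one, as were 9.91% of all genes. Kif5c, the neuronal form, stood at 242 and 399 CPM in striatomesencephalic and at 680, 613 and 531 CPM in striatopallidal libraries. The group means of 321 ± 110 CPM (SD, n = 2) and 608 ± 74.3 CPM (SD, n = 3) did not overlap within 1 SD. In log2 terms the difference was -1.01 ± 0.40 (SE), with an edgeR adjusted p of 0.779. Leaving out 1 library at a time or changing the method moved this value between -1.44 and -0.68. Kif5b, the form found in most tissues, was at 64.6 and 35.4 CPM against 104, 139 and 66.7 CPM (log2 fold change -1.21 ± 0.63, adjusted p 0.780 in edgeR), and its groups were separated by a narrow gap. The value was -0.68 without striatopallidal replicate 2. Kif5a, the neuronal form mutated in hereditary spastic paraplegia, overlapped fully at 1362 and 1769 CPM against 1673, 1166 and 1399 CPM, with a log2 fold change of 0.087 ± 0.27.

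Within the summed kinesin-1 heavy chain counts the balance between the forms therefore differed between libraries of the groups. Kif5c made up 14.5% and 18.1% of these counts in striatomesencephalic and 27.7%, 32.0% and 26.6% in striatopallidal libraries. Kif5a made up 81.6% and 80.3% against 68.1%, 60.8% and 70.1%. Such shares compare libraries and not the amounts of the forms, because the transcripts differ in length. They do not depend on library scaling. Shares of this kind were computed for 25 genes within their families, and the groups did not overlap for 7 of them. In CPM, which is another measure, 21.1% of all genes were apart. The shares of a family add up to the whole and are not separate values. Kif5a and Nefl were apart in share while their CPM overlapped. A single share cannot reach a p below 0.1 in an exact two-sided permutation test of 2 against 3 libraries.

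The light chains, which link kinesin-1 to its cargo, did not differ beyond their spread. Klc1 was at 102 and 258 CPM against 231, 87.7 and 254 CPM. Klc2 was at 56.6 and 5.88 CPM against 22.4, 36.0 and 25.5 CPM, and the 2 striatomesencephalic libraries lay on either side of all striatopallidal ones. Klc4 had 29 and 75 counts against 58, 1 and 52 counts.

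Kinesin-2 motors, which carry vesicles in axons and dendrites and build cilia, gave no gene past the threshold, and 3 of the 5 genes overlapped between the groups. Kif17, a dendritic motor known for moving NMDA receptor vesicles, stood at 63.2 and 35.7 CPM in striatomesencephalic and at 16.0, 1.29 and 9.41 CPM in striatopallidal libraries. Group means were 49.4 ± 19.4 CPM (SD, n = 2) and 8.91 ± 7.38 CPM (SD, n = 3). The log2 fold change was 2.54 ± 0.95 (SE), with an adjusted p of 0.779 in edgeR and 0.168 in DESeq2. Over the alternatives it ran from 2.05 to 3.23. Kif3c, an alternative partner of Kif3a, lay in the other direction at 20.5 and 11.3 CPM against 50.0, 34.5 and 28.0 CPM, a log2 fold change of -1.32 ± 0.69. Kif3a (68.6 and 49.6 CPM against 62.0, 29.7 and 42.4 CPM) and Kif3b (69.0 and 69.7 CPM against 77.4, 96.7 and 62.7 CPM) overlapped. Kifap3, the accessory subunit that joins the motor pair to cargo, was at 414 and 562 CPM against 556, 283 and 588 CPM, a log2 fold change of 0.014 ± 0.35.

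Of the counts of the 4 kinesin-2 motor genes, Kif17 took 28.6% and 21.5% in striatomesencephalic libraries and 7.80%, 0.795% and 6.61% in striatopallidal ones. Kif3c took 9.26% and 6.78% against 24.3%, 21.3% and 19.6%. Both shares were apart between the groups, in opposite directions.

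**Figure D3:**
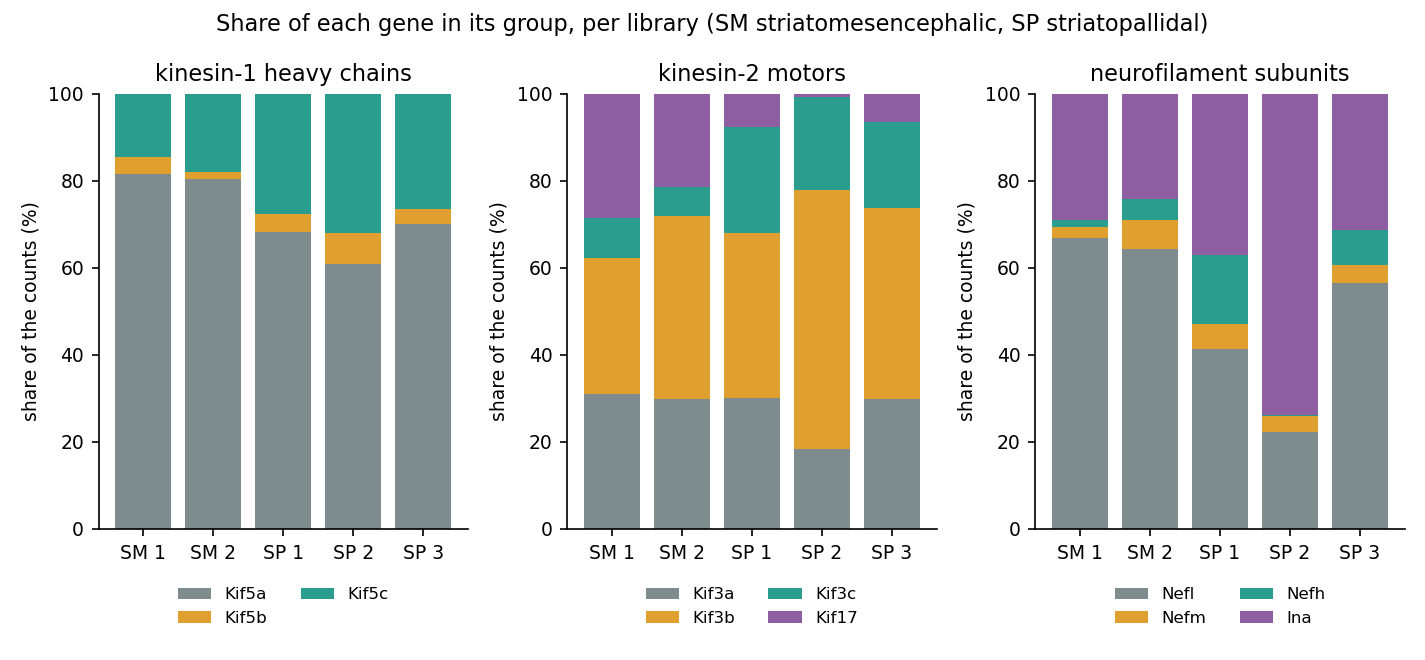
Stacked bars of the share in percent that each gene took of its family's counts in each library, for kinesin-1 heavy chains, kinesin-2 motors and neurofilament subunits. Kif5c, Kif3c and Ina take larger shares in all 3 striatopallidal libraries (SP), and Kif5a, Kif17 and Nefl in both striatomesencephalic libraries (SM). The shares of a family add up to the whole, and Kif5a and Nefl overlapped between the groups in CPM.

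Kif21a, a kinesin-4 motor that slows microtubule growth and whose mutations disturb eye-muscle innervation, had the smallest unadjusted p of the 68 genes (0.00834). It stood at 1163 and 508 CPM in striatomesencephalic libraries and at 311, 258 and 254 CPM in striatopallidal libraries. Both striatomesencephalic values lay above the tight striatopallidal range, but they differed from each other more than that range is wide. Averages were 835 ± 463 CPM (SD, n = 2) against 274 ± 31.9 CPM (SD, n = 3). The log2 difference of 1.52 ± 0.42 (SE) had an adjusted p of 0.779 in edgeR and 0.244 in DESeq2. It was 0.83 without striatomesencephalic replicate 1 and 1.99 without replicate 2. Its share of all kinesin counts was 22.5% and 9.19% against 5.79%, 6.24% and 5.33%. Its relative Kif21b was at 4.08 and 2.03 CPM against 2.89, 0.645 and 0.714 CPM.

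Kif27, a relative of the hedgehog pathway kinesin Kif7, was the member DESeq2 called (adjusted p 0.0392). Its levels were 23.5 and 27.4 CPM against 6.92, 3.63 and 6.07 CPM, so that the lower striatomesencephalic library exceeded the higher striatopallidal library several-fold. Means were 25.4 ± 2.77 CPM (SD, n = 2) and 5.54 ± 1.71 CPM (SD, n = 3), and the fitted log2 difference was 2.17 ± 0.72 (SE). The edgeR adjusted p was 0.779, and the fold change stayed between 2.03 and 2.29 over the alternatives. DESeq2 called 0.615% of all genes higher in striatomesencephalic libraries.

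Kif15, a spindle motor of dividing cells that neurons also use in their axons, had 507 and 375 counts in striatomesencephalic libraries and 14, 0 and 84 counts in striatopallidal libraries. Its fitted log2 fold change of 3.87 ± 1.71 ran from 3.29 to 7.13 over the alternatives. The part of the library at 0, and of the library with 84 counts, in this range was not tested. Other kinesins linked to division did not share this: Kif14 had 43 and 1 counts against 9, 1 and 141 counts, and Kif22 was at 2.25 and 1.24 CPM against 1.22, 0.403 and 11.6 CPM. Of 13 markers of dividing cells 6 were matched by symbol, and their sum was 83.9 and 39.2 CPM against 52.3, 54.6 and 42.6 CPM. Ccnb1 and Bub1 were at 0 in striatopallidal replicate 2, and Bub1b was at 0 there and in striatomesencephalic replicate 2.

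The kinesin-3 group moves synaptic vesicle precursors and endosomes. Kif1b stood at 1012 and 1264 CPM against 1226, 981 and 1139 CPM, and its log2 fold change of -0.044 ± 0.28 was among the smallest. Kif1a, the classic carrier of synaptic vesicle precursors, was at 56.3 and 28.9 CPM against 62.0, 17.1 and 53.6 CPM. Kif13a, a carrier of recycling endosomes, was apart in plain CPM, at 91.6 and 134 CPM against 43.7, 73.7 and 43.9 CPM. Its log2 fold change was 0.91 ± 0.58, with 0.59 without striatomesencephalic replicate 2 and 1.45 without striatopallidal replicate 2. Kif16b, another endosome motor, varied from 18.9 to 97.2 CPM within the striatomesencephalic pair and from 3.47 to 46.0 CPM among the striatopallidal libraries. Kif13b, Kif1c and Kif28p overlapped as well, and Kif28p reached 188 CPM in striatopallidal replicate 2 against 39.1 to 73.1 CPM in the other libraries.

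Further kinesins outside these groups were Kif26b, Kif2a and the minus-end motors Kifc2 and Kifc3. Kif26b, an atypical family member, was apart at 61.7 and 109 CPM against 18.5, 48.4 and 34.5 CPM. Its log2 fold change was 1.16 ± 0.70, with 0.68 without striatomesencephalic replicate 2 and 1.76 without striatopallidal replicate 2. Kif2a, which takes microtubules apart at their ends, was at 49.6 and 48.6 CPM against 66.5, 27.7 and 43.1 CPM. Kifc2 (7.20 and 45.8 CPM) and Kifc3 (5.76 and 26.4 CPM) were both several-fold higher in striatomesencephalic replicate 2 than in replicate 1, and replicate 1 lay within the striatopallidal ranges of 6.02 to 13.8 CPM and 3.35 to 8.26 CPM. Kif9, a motor of moving cilia, was spread from 0.161 to 16.2 CPM within the striatopallidal libraries alone.

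Among dynein and dynactin genes 0 of 13 had groups that were apart (21.1% of all genes). Of the 13, 11 (84.6%) had a negative log2 fold change, against 52.6% of all genes, and 0 had an unadjusted p below 0.05 (background 6.07%). Without striatopallidal replicate 2 the count was 8 of 13 (61.5%) with a median of -0.056, beside 48.0% of all genes and a median of 0.045 over all genes. Subunits of 1 complex measured in the same libraries are not replicates, and no test was made over them.

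For the dynein motor itself, all 5 genes were negative. Dync1h1, the heavy chain with the motor domain, was at 58.6 and 13.8 CPM against 96.0, 25.6 and 28.4 CPM. The intermediate chains, which hold the motor to dynactin, were at 289 and 241 CPM against 372, 324 and 210 CPM for Dync1i1, and at 185 and 123 CPM against 306, 130 and 196 CPM for Dync1i2. In both, the 2 groups overlapped, with log2 fold changes of -0.29 ± 0.43 and -0.48 ± 0.43. Without 1 library at a time Dync1i1 ran from -0.54 to -0.039 and Dync1i2 from -0.78 to -0.22, the values nearest 0 being those without striatopallidal replicate 2 and without striatomesencephalic replicate 2. Of the light intermediate chains, which bind cargo adaptors, Dync1li1 stood at 31.9 and 40.9 CPM against 29.8, 143 and 23.2 CPM. Its log2 fold change of -1.14 ± 1.02 rested on striatopallidal replicate 2 and was 0.55 without that library. Dync1li2 was at 128 and 81.6 CPM against 174, 71.2 and 141 CPM.

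Dynactin genes showed the same kind of single-library spread. Dctn1, the p150 subunit that grips the microtubule, was at 76.5 and 62.3 CPM against 90.5, 53.7 and 283 CPM, the high value being striatopallidal replicate 3, and its log2 fold change went from -1.04 to -0.15 without that library. Dctn3 was at 87.1 and 49.3 CPM against 65.0, 202 and 85.2 CPM, the high value being striatopallidal replicate 2, and its log2 fold change went from -1.01 to -0.064 without it. Dctn2, Dctn5 and Dctn6 overlapped as well, with log2 fold changes of -0.20, -0.44 and -0.12. Dctn4, at 42.4 and 27.5 CPM against 26.9, 16.3 and 30.2 CPM, was the only dynactin gene with a positive value (0.47). The dynein of cilia was measured through Dync2h1 (103 and 36.9 CPM against 63.1, 16.3 and 45.7 CPM) and Dync2li1 (66.2 and 44.3 CPM against 60.1, 62.8 and 55.7 CPM).

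Summed over each class, dynein with dynactin and the neurofilaments were the 2 classes of 6 whose groups did not overlap in plain CPM. Of single genes, 21.1% of all tested were apart, and 0 of the 13 dynein and dynactin genes. A single sum cannot reach a p below 0.1 in an exact two-sided permutation test of 2 against 3 libraries. Dynein and dynactin summed to 1329 and 1002 CPM in striatomesencephalic and 1612, 1407 and 1357 CPM in striatopallidal libraries. The class means were 1165 ± 231 CPM (SD, n = 2) against 1459 ± 135 CPM (SD, n = 3). Striatomesencephalic replicate 1 lay just under the lowest striatopallidal library. The log2 ratio of the means was -0.32, beside the -0.38 of the spiny projection neuron markers, whose part in it was not tested. In TMM-scaled CPM, a scaling examined after the data were seen, both classes stayed apart, dynein and dynactin by 1272 against 1276 CPM for the nearest libraries. Stathmins were then apart too, at 675 and 565 CPM against 522, 451 and 553 CPM, higher in striatomesencephalic libraries. Kinesins summed to 5175 and 5523 CPM against 5374, 4129 and 4760 CPM and overlapped. The ratio of summed kinesin to summed dynein and dynactin counts was 3.89 and 5.51 against 3.33, 2.93 and 3.51. Such ratios do not depend on library scaling. Kif21a alone made up 22.5% and 9.19% of the kinesin counts against 5.79%, 6.24% and 5.33%. The ratio without Kif21a is not given here, so how far the gap rests on that gene was not tested. The ratios of tubulins to kinesins and of stathmins to tubulins overlapped between the groups. All 68 genes together made up 1.06% to 1.30% of the counts of a library.

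**Figure D4:**
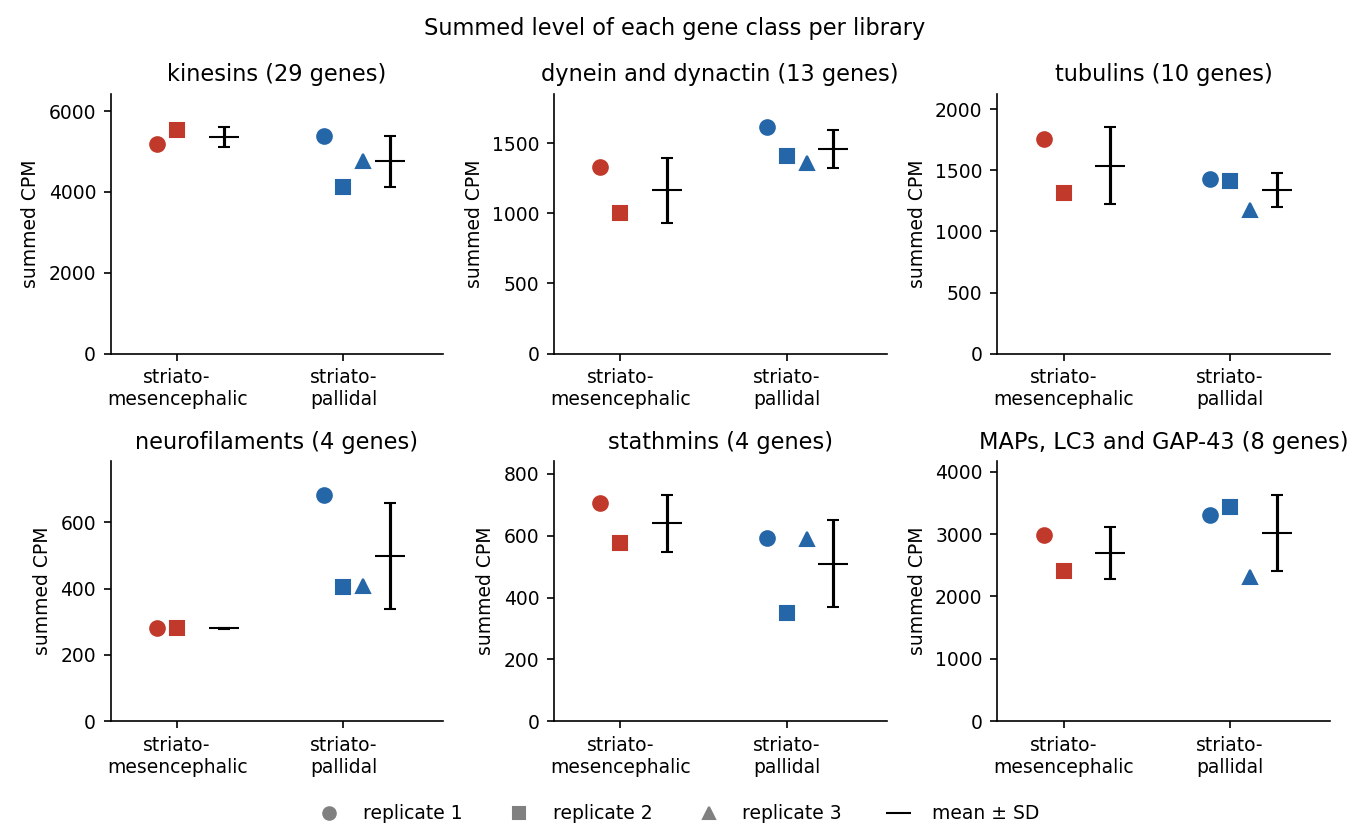
Summed CPM of each class in each library, with 1 point per library and black bars for the mean ± SD of each group. Neurofilaments (282 and 280 CPM against 683, 404 and 407 CPM) and dynein with dynactin are lower in both striatomesencephalic libraries, and the other 4 classes overlap in plain CPM, while stathmins do not after TMM scaling.

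The 4 neurofilament subunits all had a negative log2 fold change in the edgeR fit, and only Ina was apart between the groups. Ina, alpha-internexin, which joins the neurofilament triplet in central neurons, stood at 81.6 and 67.9 CPM in striatomesencephalic and at 253, 298 and 128 CPM in striatopallidal libraries. These values averaged 74.8 ± 9.67 CPM (SD, n = 2) against 226 ± 88.1 CPM (SD, n = 3). The log2 difference was -1.75 ± 0.58 (SE), with an adjusted p of 0.779 in edgeR and 0.215 in DESeq2. It ran from -2.07 to -1.25 over the alternatives. Nefh, the heavy subunit whose tail spaces the filaments, was at 4.99 and 13.3 CPM against 109, 1.53 and 32.8 CPM, so the striatopallidal libraries spanned both striatomesencephalic values. With 1 CPM added, the highest of them was 43.3 times the lowest, and the log2 fold change was -2.27 ± 1.44. It was -0.89 without striatopallidal replicate 1. Nefm, the medium subunit, overlapped at 6.62 and 18.8 CPM against 39.3, 14.6 and 16.8 CPM, and its log2 fold change of -0.89 ran from -1.86 to -0.31 without 1 library at a time. Nefl, the light subunit that starts filament assembly, was at 188 and 180 CPM against 281, 89.7 and 230 CPM (log2 fold change -0.11 ± 0.45).

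Summed neurofilament levels averaged 281 ± 1.36 CPM (SD, n = 2) in striatomesencephalic libraries against 498 ± 160 CPM (SD, n = 3), a log2 ratio of -0.83. Set against summed tubulin it gave 0.160 and 0.213 against 0.477, 0.287 and 0.347, again with no overlap. Of the sum, Nefl took 66.9% and 64.2% against 41.2%, 22.2% and 56.4%, and Ina took 29.0% and 24.3% against 37.1%, 73.8% and 31.4%. The gap for Ina was narrow, its wide striatopallidal spread came from replicate 2, and the shares of Nefm and Nefh overlapped. Ina is part of the sum and of these shares, so these values are not separate from its own. Without striatopallidal replicate 1 the sign count of the subunits was 3 of 4 negative, with a median of -0.69. Markers of interneurons, some of which are rich in neurofilaments, summed to 60.8 and 82.5 CPM against 90.2, 62.6 and 128 CPM, and their part in these values was not tested.

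Tubulins, the subunits of the microtubule itself, split in both directions. Tubb5, a beta-tubulin made in most cells, was at 688 and 683 CPM against 527, 582 and 593 CPM. The groups were apart in plain CPM, but the log2 fold change after TMM scaling was only 0.17 ± 0.33. Tuba1a, the main alpha-tubulin of young neurons, was at 165 and 129 CPM against 107, 66.2 and 109 CPM (log2 fold change 0.60 ± 0.41). Tubb4a, a beta-tubulin of neurons and oligodendrocytes, was at 345 CPM in striatomesencephalic replicate 1 and at 47.4 CPM in replicate 2, against 76.8, 60.8 and 49.8 CPM. Its log2 fold change of 1.55 ± 0.77 rested on replicate 1 and was -0.46 without it. Of the beta-tubulin counts Tubb4a took 26.7% in that library and 4.79% to 7.54% in the others.

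Tuba4a, an alpha-tubulin of mature neurons, showed the same kind of spread in the other group, with 224 and 124 CPM against 193, 449 and 96.4 CPM. Tubb3, the neuronal beta-tubulin, overlapped at 156 and 133 CPM against 201, 108 and 127 CPM (log2 fold change -0.053). The other alpha- and beta-tubulins, Tuba1b, Tubb4b, Tubb2a and Tubb2b, also overlapped, with log2 fold changes of -0.11, -0.44, 0.15 and 0.012. Tubb6 had 135 and 1 counts against 132, 0 and 3 counts. Tubulin genes are near-identical in their coding sequence, so counts can be split or lost between them, and single tubulin values are uncertain.

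Stathmins bind tubulin dimers and free them from microtubules. Stmn1, stathmin itself, was at 90.8 and 92.1 CPM against 51.4, 39.2 and 27.9 CPM. Its libraries were apart, with means of 91.4 ± 0.919 CPM (SD, n = 2) and 39.5 ± 11.7 CPM (SD, n = 3). The log2 difference of 1.12 ± 0.53 (SE; edgeR adjusted p 0.779) stayed between 0.88 and 1.30 over the alternatives. It took 12.9% and 16.0% of stathmin counts against 8.67%, 11.2% and 4.75%. Stmn2, also called SCG10 and known for axon regrowth, was at 341 and 261 CPM against 269, 145 and 286 CPM. Stmn3 (log2 fold change -0.016) and Stmn4 (0.044) were close to 0.

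Microtubule-associated proteins gave no gene whose groups were apart in plain CPM. Map1b, an early axonal stabiliser, was at 1418 and 1278 CPM against 1935, 2046 and 1040 CPM. Its log2 fold change was -0.44 ± 0.43, and -0.043 without striatopallidal replicate 2. Mapt, tau, was held within 472 to 599.8 CPM in all 5 libraries, with a log2 fold change of -0.046 ± 0.35. Map2, the dendritic counterpart, was at 306 and 143 CPM against 191, 518 and 150 CPM, the high value again being striatopallidal replicate 2. Gap43, a growth cone protein kept in adult axon terminals, was at 343 and 139 CPM against 175, 124 and 227 CPM (log2 fold change 0.40 ± 0.48). Map1lc3a and Map1lc3b, whose LC3 proteins mark autophagosomes, overlapped too. Map1lc3a had 417 and 594 counts against 1168, 508 and 672 counts, and Map1lc3b was at 56.9 and 79.2 CPM against 64.0, 30.6 and 62.2 CPM. Map1a (177 and 175 CPM against 290.0, 97.5 and 229 CPM) and Map1s (67.1 and 74.0 CPM against 125, 47.4 and 36.6 CPM), relatives of Map1b, had log2 fold changes of -0.22 and -0.0035.

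Spread within a group was compared with that of other genes. The median ratio of the highest to the lowest library of a group was 2.39 for the 68 genes and 3.01 for all genes tested, but 2.08 for the 3023 genes with a mean CPM at or above the members' median of 72.6. The median biological coefficient of variation was 0.559 for the members, 0.749 for all genes and 0.473 for those 3023 genes. The members were thus below all genes and above the genes of higher level in both measures, and no test was made.

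Genes that work with the motors and the cytoskeleton were taken from 6 further lists, of which 113 genes were tested. Of these 53 were positive and 60 negative, 0 passed in edgeR's quasi-likelihood test (0% of all genes), and 4 had an unadjusted p below 0.05 (background 6.07%). Among cargo adaptors and scaffolds, 12 of 24 were positive. Hook2, a linker of dynein to cargo, was called by DESeq2 (adjusted p 0.0371) at 11.0 and 3.40 CPM against 0.252, 0.524 and 0.134 CPM. Mapk8ip3, the JIP3 scaffold that joins kinesin-1 and dynein, lay the other way at 12.4 and 13.2 CPM against 51.9, 26.8 and 134 CPM (log2 fold change -2.47 ± 0.80, DESeq2 adjusted p 0.0640).

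Dynein light chains and regulators had 6 positive and 10 negative values. Actr1a, the actin-related filament of dynactin, was at 160 and 191 CPM against 99.6, 52.9 and 112 CPM, so this dynactin gene lay opposite to most genes of the dynactin class. Its close copy Actr1b was at 48.3 and 73.0 CPM against 85.0, 909 and 68.7 CPM, with the high value in striatopallidal replicate 2. Tubulin folding and modification genes had 9 positive and 5 negative values. Agtpbp1, which trims glutamate chains from tubulin, was at 175 and 162 CPM against 241, 355 and 298 CPM, and Ttll5, which adds such chains, was at 58.0 and 146 CPM against 53.4, 40.0 and 30.2 CPM. These were the 2 genes of the list with the smallest p, and neither passed.

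Genes of microtubule ends and other microtubule-associated proteins had 13 positive and 17 negative values, with Dclk2, a doublecortin-like kinase, at 235 and 227 CPM against 468, 475 and 366 CPM. Map9 of the same list was at 32.2 and 44.7 CPM against 113, 73.9 and 68.7 CPM. The membrane skeleton and growth genes had 10 positive and 12 negative values. Nav2, a microtubule-binding neuron navigator, was at 33.1 and 26.6 CPM against 104, 43.9 and 102 CPM, and Marcks, an actin-binding kinase substrate, was at 461 and 698 CPM against 391, 259 and 345 CPM. Axon injury genes, 7 of which were tested, had 3 positive and 4 negative values. Among them Flrt3 was at 196 and 188 CPM against 300.0, 369 and 236 CPM, and the stress factor Ddit3 was raised in 1 library alone, at 28.6 CPM in striatomesencephalic replicate 1 and 5.64 to 6.72 CPM in the others.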

How the data were processed

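The input was the 5 deposited tables of read counts per Ensembl gene, 1 per library, of laser-captured rat striatal neurons. The submitters' processing notes name the tools TopHat2, HTSeq, edgeR and limma and the build Rnor_6.0. Roles, versions and strand use in counting were not given in those sources. The authors' deposited comparison supplied gene symbols and, per the file headers, log2 fold changes and mean levels with p-values, raw and adjusted. The members and the gene lists were chosen with earlier results of these data known.

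CPM was each count divided by its library total and multiplied by 1000000. Fold changes came from edgeR 4.0.16 (filterByExpr, TMM, glmQLFit and glmQLFTest) in R 4.3.3, with Benjamini-Hochberg adjustment over 13811 genes and a threshold of 0.05. Standard errors were the fold change divided by the root of its F statistic. DESeq2 1.42.0, the exact test of edgeR, limma voom (limma 3.58.1), other scalings, no filter, a replicate block and leaving out each library were the alternatives. The test steps were tested on simulated counts, with recovery required only at a spread far below that of these libraries. Their common biological coefficient of variation was 0.822. Named genes were neurofilament subunits, Map2, Mapt and Gap43, the member of each subgroup with the highest CPM or the smallest p, further kinesins, tubulins and dynein genes with small p, DESeq2 calls, and the 5 members with the largest ratio within a group. In each of the 6 lists of related genes, the 2 genes with the smallest p were named.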

Additional observations from a re-analysis of the deposited data

How the results depend on the processing

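Over all genes, DESeq2 called 219 and the exact test of edgeR 45, where edgeR's quasi-likelihood test called 0. Of the members DESeq2 called 1, Kif27, and every other alternative called 0, the 5 fits without 1 library included. Of 44 named members, 24 kept their sign in all 13 alternatives. Whether the replicate numbers shared by the groups pair the libraries is not known. Same-numbered libraries deviated from their group means with correlations of -0.018 and -0.033. These cannot decide it, because the 2 striatomesencephalic libraries deviate from their mean by equal and opposite amounts. With the replicate block no member passed, the kinesin median was 0.31, and Klc1 (0.049) and Nefl (0.075) changed sign. Upper-quartile factors gave -0.047 for Kifap3 and 0.020 for Klc2. Library totals alone gave 0.065 for Mapt, 0.16 for Klc2 and 0.028 for Kif1b, and limma voom gave 0.0070 for Mapt. The log2 ratio of summed neurofilament CPM was -1.62 without Nefl, the subunit with the highest mean CPM. Ina, the only subunit apart by itself, stayed in that sum, and Nefl, Nefm and Nefh each overlapped between the groups in CPM. The sum without Ina is not given here.

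Leaving out 1 library at a time moved the class medians most. They ran from -0.61 to -0.056 for dynein and dynactin, -0.089 to 0.31 for kinesins, -0.15 to 0.14 for tubulins, -1.75 to -0.69 for neurofilaments, 0.12 to 0.41 for stathmins, and -0.27 to 0.071 for microtubule-associated proteins, LC3 and GAP-43. Log2 ratios of summed CPM ran from -0.54 to -0.13 for dynein and dynactin and from -0.025 to 0.39 for tubulins. The cause was not tested. Log2 fold changes that changed sign without 1 library ran from -0.36 to 0.91 for Gap43, -0.24 to 0.24 for Kifap3, -1.19 to 0.36 for Tuba4a, -0.56 to 1.77 for Kif16b, -0.21 to 0.19 for Mapt, -0.51 to 0.033 for Dync2li1 and -0.13 to 0.28 for Kif5a. They ran from -1.58 to 0.55 for Dync1li1, -0.93 to 0.46 for Klc1, -1.22 to 0.48 for Map2, -0.38 to 0.098 for Nefl, -0.063 to 0.31 for Kif2a, -0.18 to 2.06 for Kifc3 and -0.65 to 0.049 for Dctn5. They ran from -0.13 to 1.16 for Klc4, -2.38 to 0.85 for Klc2, -0.13 to 1.32 for Dync2h1, -0.46 to 2.37 for Tubb4a, -0.23 to 0.13 for Kif1b and -0.75 to 1.95 for Kifc2. Where a group was left with 1 library, that library was assumed to vary like the others.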

Other observations

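The authors' deposited table, which gives striatopallidal minus striatomesencephalic values, held 0 of 12054 genes with an adjusted p below 0.05, the smallest being 0.927. There, 7 of the 68 members (against 4.53% of all its genes) had an unadjusted p below 0.05. They were Kif21a, Kif17, Kif15, Kif27 and Stmn1 with log2 fold changes of -1.48, -3.20, -6.23, -2.30 and -1.25, and Kif5c and Ina with 0.95 and 1.56. Of the other neurofilament subunits, Nefl was at -0.12 there, on the striatomesencephalic side, and Nefm and Nefh were at 0.86 and 0.82. The table rests on the same libraries as the values above and is no separate evidence.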
